A study of Homo sapiens with 6 samples.

Results

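The 10 genes described here encode the TGFβ ligands (TGFB1, TGFB2 and TGFB3), the receptors that bind them (TGFBR1, TGFBR2 and TGFBR3) and the latent TGFβ-binding proteins (LTBP1, LTBP2, LTBP3 and LTBP4). They were taken by gene symbol from a table of 26334 genes, and all 10 were found and tested. RNA was sequenced from MCF10DCIS.com cells, a human breast cancer line of basal type, in 6 libraries. The 3 control libraries came from cells carrying a hairpin against luciferase (shLuc), and the 3 libraries of silenced cells carried a vector against WDR5 (shWDR5), a core subunit of the complexes that methylate histone H3 at lysine 4. Both groups were infected with the same vector backbone, which also expresses TagRFP, were selected in puromycin at 3 µg/ml and grew in medium with horse serum. The study pooled hairpins against WDR5 for its transplanted cells, and the sources used here do not say which hairpin or pool these libraries carried. Neither the labels nor the methods say whether the libraries of a group came from separate infections, and p-values then measure the spread between these libraries. The study asked whether WDR5 acts on the TGFβ pathway and on epithelial-to-mesenchymal transition (EMT).

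TGFβ is made as a long precursor that the protease furin cuts, and the cleaved propeptide stays wrapped around the growth factor and keeps it inactive. In most cells this small latent complex is tied to a latent-binding protein, which anchors it in the extracellular matrix until integrins or proteases release it. The free ligand binds TGFBR2, which then activates TGFBR1, and this kinase phosphorylates SMAD2 and SMAD3. TGFBR3, also called betaglycan, has no kinase and presents ligand, TGFβ2 above all, to TGFBR2. In breast epithelium the pathway restrains growth, and in carcinoma cells it is known as an inducer of EMT.

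WDR5 silencing was accompanied by lower RNA of TGFB1, TGFB3, TGFBR2, TGFBR3 and LTBP1 and by higher RNA of TGFBR1 and LTBP2 (adjusted p below the 0.05 threshold in edgeR's quasi-likelihood test over 16117 genes). TGFB2, LTBP3 and LTBP4 did not pass. TGFB1 had the largest change among the members, to 0.614 of the control level (95% confidence interval 0.542 to 0.696), and TGFBR1 the largest rise, 1.52-fold (1.33 to 1.74). The response of this cell line was broad, and the members' count has to be read against it: 56.5% of all genes tested passed the same threshold, 29.9% lower and 26.6% higher, against 7 of 10 members, 5 lower and 2 higher. The direction of the excess over all genes depended on scaling, with 4821 lower and 4291 higher here, 5498 lower and 3705 higher with library totals, and 4390 lower and 4663 higher with upper-quartile scaling, while the 7 members passed in the same direction under each. The study's own rule also asked for an absolute log2 fold change of at least 0.6 and more than 0.5 RPKM (reads scaled to library size and transcript length). That rule kept TGFB1 among 10.5% of genes that were lower and TGFBR1 among 7.91% that were higher.

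TGFB1, TGFBR1 and LTBP2 were picked for a view of their sequence after their values were seen. They passed the study's rule or passed the 0.05 threshold with a rise, and each had the largest change in its class. The sequences before their transcription starts are shown. Each is the 250 bases upstream of the first start listed in RefSeq (GRCh38.p14, not the hg19 build of the counts), read 5′ to 3′ on the gene's strand. Capitals mark GC boxes (GGGCGG), canonical E-boxes (CACGTG), AP-1 sites (TGANTCA) and CCAAT boxes (CCAAT), searched on both strands.
TGFB1, chr19:41353923-41354172, minus strand: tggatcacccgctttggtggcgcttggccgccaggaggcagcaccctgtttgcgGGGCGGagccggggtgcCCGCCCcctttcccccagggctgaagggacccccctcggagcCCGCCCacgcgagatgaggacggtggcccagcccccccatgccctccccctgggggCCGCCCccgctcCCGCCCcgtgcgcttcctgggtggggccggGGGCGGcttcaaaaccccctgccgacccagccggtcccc
TGFBR1, chr9:99104863-99105112, plus strand: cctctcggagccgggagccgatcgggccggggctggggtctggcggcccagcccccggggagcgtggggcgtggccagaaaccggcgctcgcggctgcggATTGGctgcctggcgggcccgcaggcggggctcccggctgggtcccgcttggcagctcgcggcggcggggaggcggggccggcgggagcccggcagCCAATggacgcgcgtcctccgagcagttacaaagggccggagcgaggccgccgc
LTBP2, chr14:74612238-74612487, minus strand: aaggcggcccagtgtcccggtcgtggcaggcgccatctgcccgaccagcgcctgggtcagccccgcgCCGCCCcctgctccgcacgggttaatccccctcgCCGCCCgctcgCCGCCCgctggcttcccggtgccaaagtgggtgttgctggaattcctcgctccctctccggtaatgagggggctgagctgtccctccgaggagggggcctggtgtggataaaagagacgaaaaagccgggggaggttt

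The TGFB1 window held 6 GC boxes and none of the other motifs, and 76.8% of its bases were G or C. TGFBR1, for which RefSeq listed 8 starts, held 2 CCAAT boxes and no exact GC box at 79.6% G or C. In LTBP2 there were 3 GC boxes at 68.8% G or C. Over all 35116 windows of this length the median G or C content was 58%, and 42.6% held a GC box, 32.0% a CCAAT box, 6.34% an E-box and 6.57% an AP-1 site. Of the other members, TGFB2 and TGFB3 each held 1 E-box and no GC box. TGFBR3 held 2 GC boxes, and LTBP3 and LTBP4 held 1 GC box each. LTBP1 held 2 CCAAT boxes and TGFBR2 held 1. No motif was shared by all members that fell or by both that rose.

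WDR5 itself was measured at 52.6, 48.5 and 51.3 CPM (counts scaled to a common library size) in shLuc replicates 1 to 3 and at 23.4, 24.4 and 20.8 CPM in shWDR5, a fall to 0.450 of control (log2 fold change -1.15 ± 0.07 SE; adjusted p = 8.7e-07). The libraries held 38218108 to 57640167 counts in genes. Of 10 basal epithelial markers, all were above 1 RPKM on average, and their summed level went from 3419 to 3670 RPKM in shLuc to 5472 to 6162 RPKM in shWDR5, most of it KRT17, ITGB4 and KRT5. In 7 of the 10 every silenced library was above every control. Counted in either direction, all 10 but ITGA6 had groups without overlap, against 62.3% of all genes tested. CDH1, the adherens junction cadherin, was lower, at 98.1 to 106 RPKM in shLuc and 48.7 to 51.3 RPKM in shWDR5, as was EPCAM, an epithelial adhesion molecule, at 152 to 178 and 119 to 138 RPKM, and ITGA6 overlapped between the groups. The receptor genes that mark hormone-responsive luminal cells were low, with ESR1 at most at 0.585 RPKM and PGR at most at 0.0034 RPKM. Fibroblast markers summed to 3.72 to 4.04 RPKM in shLuc and 2.54 to 3.04 RPKM in shWDR5, nearly all of it COL1A1, with LUM at 0 in all 6 libraries. Immune markers summed to at most 7.03 RPKM, nearly all of it CD68, while PTPRC was at most at 0.0204 RPKM and CD3E was at 0. Endothelial markers summed to 1.72 to 1.79 RPKM in shLuc and 1.05 to 1.19 RPKM in shWDR5, most of it PECAM1, and the part of these low levels in the members' changes was not tested. Replicate 1 stood apart in each group: its chi-square statistic per gene against the other replicates was 14.4 to 18.4, and that of replicate 2 against 3 was 7.61 in shLuc and 7.20 in shWDR5. Therefore each member's change was also computed without both of these libraries. In RNA from whole cultures, fewer cells making a transcript and less transcript per cell cannot be told apart.

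TGFB1, TGFβ1, is the ligand most often linked to EMT (hg19 chr19:41836436-41859838, minus strand, 7 exons, 2583 bases). Its level was 24.3, 24.2 and 21.5 CPM in shLuc and 15.3, 13.2 and 14.6 CPM in shWDR5. All 3 silenced libraries lay below all 3 controls. The log2 fold change was -0.70 ± 0.08 SE (adjusted p = 4.0e-05), and without replicate 1 it was -0.70 (adjusted p = 3.7e-05).

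TGFB2, the isoform that depends most on TGFBR3 for binding, sits at hg19 chr1:218518676-218617961 on the plus strand and was the most abundant ligand RNA. It was measured at 59.5, 69.8 and 71.8 CPM in shLuc and at 57.0, 67.7 and 65.7 CPM in shWDR5. The groups overlapped, and replicate 1 was the lowest library of both. The log2 fold change was -0.08 ± 0.09 SE, with a 95% confidence interval of -0.27 to 0.12 (adjusted p = 0.48). A change of the size seen for TGFB1 lies outside that interval. TGFB2 shares 1370 exon bases with TGFB2-OT1, listed at 0 in every library, and 131 with the antisense gene TGFB2-AS1, and reads there may not have been assigned to it. The sources used here do not say whether counting used strand.

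TGFB3, the least abundant ligand, lies at hg19 chr14:76424440-76448365 on the minus strand. Its values were tight, at 4.05, 4.10 and 4.16 CPM in shLuc against 3.11, 2.90 and 2.93 CPM in shWDR5. These come from 133 to 200 reads per library. The groups did not overlap. The fall was to 0.726 of control (log2 fold change -0.46 ± 0.09 SE; adjusted p = 0.0017), and without replicate 1 the log2 fold change was -0.48 (adjusted p = 0.0068).

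**Figure D1:**
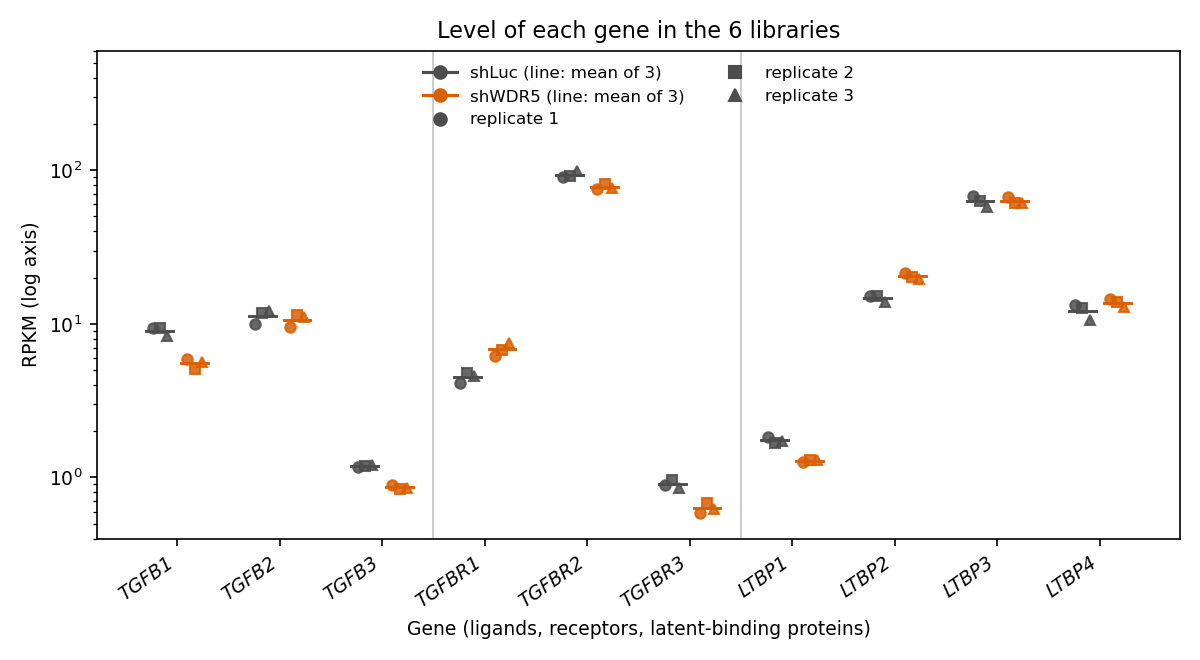
RPKM (log axis) of the 10 genes in the 3 shLuc (grey) and 3 shWDR5 (orange) libraries, with a symbol for each replicate and a line at each group's mean. TGFBR2 and LTBP3 are far above the rest, TGFB1 drops from 8.33 to 9.43 RPKM in shLuc to 5.12 to 5.91 RPKM in shWDR5, and TGFBR1 crosses above it.

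TGFBR1, the type I receptor kinase that phosphorylates SMAD2 and SMAD3, lies at hg19 chr9:101867371-101916473 on the plus strand and was the receptor that rose. It was measured at 26.8, 31.3 and 29.7 CPM in shLuc and at 40.2, 44.0 and 49.2 CPM in shWDR5. Every silenced library was above every control. The log2 fold change was 0.60 ± 0.09 SE (adjusted p = 1.9e-04), so it passed the study's limit of 0.6 only narrowly. It ranged from 0.53 to 0.67 over 16 other ways of processing. In some of these it fell short of the limit, as with library totals (0.55) and without shLuc replicate 1 (0.56). Without replicate 1 it was 0.63 (adjusted p = 2.5e-05).

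TGFBR2, the type II receptor that captures the ligand (hg19 chr3:30647994-30735633, plus strand), was the most abundant of the members. Its level was 426, 432 and 466 CPM in shLuc and 357, 382 and 361 CPM in shWDR5. The ranges did not overlap, but the fall was shallow, to 0.832 of control (0.764 to 0.906). The test gave a log2 fold change of -0.27 ± 0.06 SE (adjusted p = 0.0021), and without replicate 1 it was -0.25 (adjusted p = 0.0043). The whole interval of its log2 fold change, -0.39 to -0.14, lies short of the study's limit.

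TGFBR3, the co-receptor betaglycan (hg19 chr1:92145900-92371559, minus strand), was scarce, with 185 to 299 reads per library. It was at 6.05, 6.52 and 5.85 CPM in shLuc and at 3.99, 4.61 and 4.23 CPM in shWDR5. All silenced libraries were lower. The log2 fold change was -0.52 ± 0.09 SE (adjusted p = 8.6e-04) and -0.46 without replicate 1 (adjusted p = 0.0050).

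**Figure D2:**
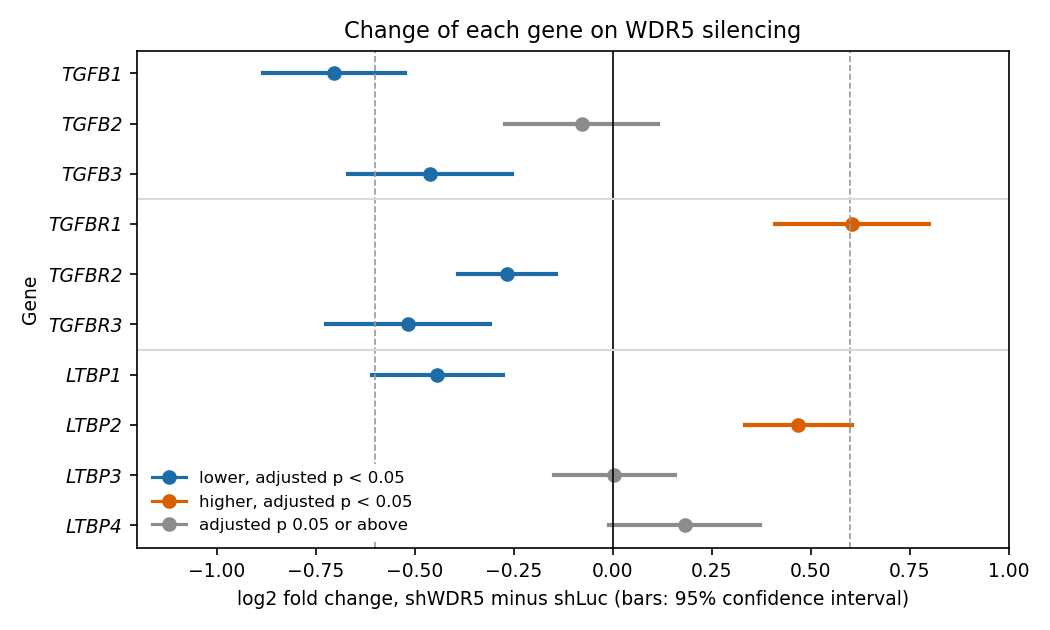
Log2 fold change of shWDR5 minus shLuc for each gene with its 95% confidence interval, coloured by call (blue lower, orange higher, grey not passing) and with dashed lines at the study's limit of 0.6 in each direction. TGFB1 at -0.70 and TGFBR1 at 0.60 are the points past the dashed lines, and the intervals of TGFB2, LTBP3 and LTBP4 cross 0.

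LTBP1, which binds the small latent complex and fixes it to matrix (hg19 chr2:33172369-33624575, plus strand), fell. It was measured at 11.7, 10.6 and 10.9 CPM in shLuc and at 8.01, 8.25 and 8.23 CPM in shWDR5. The groups were well separated. Its log2 fold change was -0.44 ± 0.07 SE (adjusted p = 5.2e-04), and without replicate 1 it was -0.37 (adjusted p = 0.0037).

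LTBP2 is the family member that does not bind latent TGFβ and is known as a protein of extracellular microfibrils (hg19 chr14:74964886-75079034, minus strand). It rose, from 130, 130 and 118 CPM in shLuc to 183, 171 and 167 CPM in shWDR5, again with no overlap. The rise was 1.38-fold (1.26 to 1.52), or a log2 fold change of 0.47 ± 0.06 SE (adjusted p = 9.2e-05), and it was 0.47 without replicate 1 (adjusted p = 5.0e-05).

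LTBP3, a carrier of latent TGFβ and the most abundant latent-binding protein (hg19 chr11:65306030-65325699, minus strand), was at 320, 299 and 270 CPM in shLuc and at 314, 290 and 288 CPM in shWDR5. The groups overlapped fully. The log2 fold change was 0.00 ± 0.07 SE, with a 95% confidence interval of -0.15 to 0.16 (adjusted p = 0.97). It changed sign in 5 of 16 other ways of processing and passed in none of them.

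LTBP4, which binds latent TGFβ weakly and helps build elastic fibres (hg19 chr19:41099072-41135725, plus strand), was at 71.9, 69.0 and 57.3 CPM in shLuc and at 79.1, 75.6 and 70.2 CPM in shWDR5. The groups overlapped, since shWDR5 replicate 3 lay below shLuc replicate 1. The log2 fold change was 0.18 ± 0.09 SE, with an interval of -0.01 to 0.37 (adjusted p = 0.096). It passed when shLuc replicate 1 was left out (0.26, adjusted p = 0.021) and when replicate 1 of both groups was left out (0.23, adjusted p = 0.031).

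By class, the ligands had 2 of 3 members lower and none higher, the receptors 2 lower and 1 higher, and the latent-binding proteins 1 lower and 1 higher of 4. The median log2 fold change was -0.46 for the ligands, -0.27 for the receptors and 0.09 for the latent-binding proteins, against -0.01 over all genes tested. Values of the 2 groups did not overlap for 7 of 10 members, and this was the case for 62.3% of all genes tested.

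Levels per length show which members dominated. In shLuc the order was TGFBR2 (93.8 ± 4.6 RPKM, SD, n = 3), LTBP3 (63.0 ± 5.3 RPKM), LTBP2 (14.7 ± 0.79 RPKM), LTBP4 (12.1 ± 1.4 RPKM), TGFB2 (11.3 ± 1.1 RPKM), TGFB1 (9.04 ± 0.62 RPKM), TGFBR1 (4.48 ± 0.34 RPKM), LTBP1 (1.75 ± 0.087 RPKM), TGFB3 (1.19 ± 0.017 RPKM) and TGFBR3 (0.903 ± 0.051 RPKM). Only the neighbours LTBP4 and TGFB2 overlapped in range. In shWDR5 TGFBR1 (6.81 ± 0.70 RPKM) stood above TGFB1 (5.56 ± 0.40 RPKM), no neighbours overlapped, and the other places were as in shLuc. The place of TGFB2 depends on its length: without the bases shared with overlapping genes it would be at 13.4 to 16.1 RPKM in shLuc, which overlaps LTBP2, and at 12.8 to 15.2 RPKM in shWDR5, which overlaps LTBP4.

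Shares within each class are given as values, without a test. Summed ligand RNA was 20.6, 22.3 and 21.6 RPKM in shLuc and 16.4, 17.3 and 17.5 RPKM in shWDR5. TGFB1 made up 38.6 to 45.8% of it in shLuc and 29.5 to 36.1% in shWDR5, and TGFB2 rose from 48.5 to 55.9% to 58.4 to 65.6%. These shares compare genes within a library, so they do not depend on scaling between libraries. They do depend on gene length. Without the bases shared with overlapping genes the TGFB2 level would be 1.34 times as high in every library. Its share would then be larger, and the share of TGFB1 and its ratio to TGFB2 smaller, in both groups. The ratio of TGFB1 to TGFB2 was 0.690 to 0.944 in shLuc and 0.450 to 0.617 in shWDR5.

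Receptor RNA was nearly all TGFBR2, at 94.1 to 94.8% of the class sum in shLuc and 90.4 to 91.9% in shWDR5. The excess of TGFBR2 over TGFBR1 narrowed, from a ratio of 22.0, 19.2 and 21.8 in shLuc to 12.3, 12.0 and 10.2 in shWDR5. TGFBR3 stayed under 1% of the class in every library. Among latent-binding proteins LTBP3 held 68.3 to 69.3% in shLuc and 63.6 to 64.5% in shWDR5, and LTBP2 went from 15.4 to 16.5% to 20.6 to 20.7%. LTBP1 was at most 2.06% of this class.

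**Figure D3:**
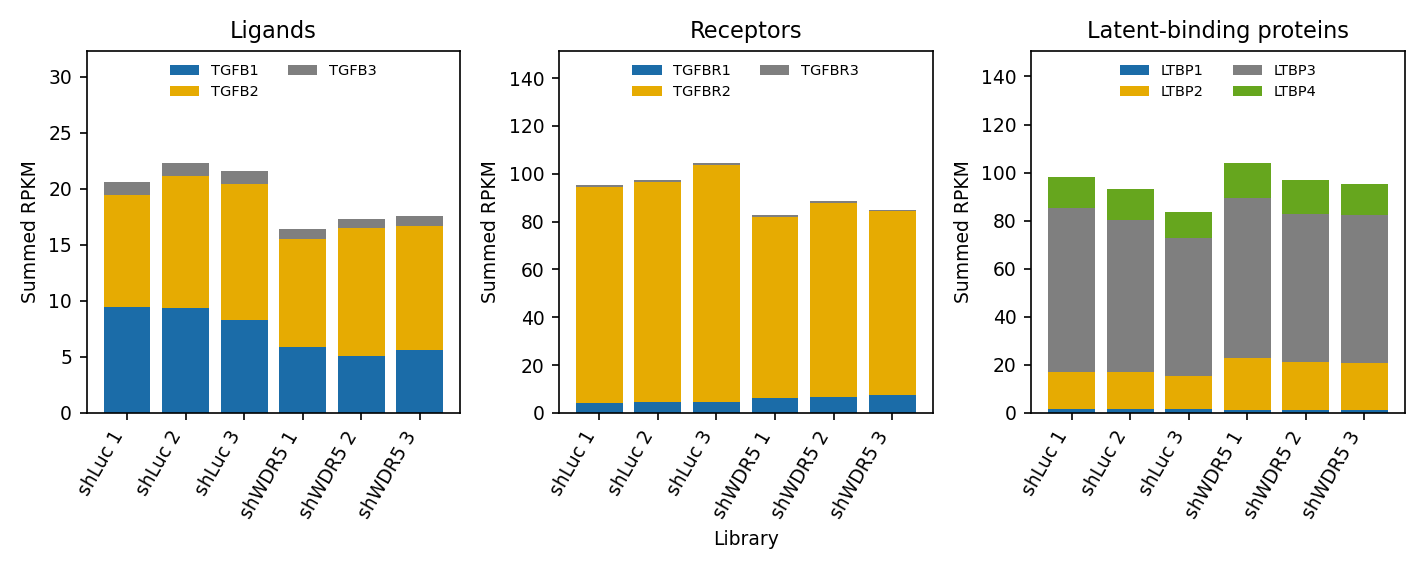
Summed RPKM of the ligands, receptors and latent-binding proteins in each of the 6 libraries, with bars split by gene. The ligand bars are lower in shWDR5 (16.4 to 17.5 RPKM) than in shLuc (20.6 to 22.3 RPKM), most visibly in the TGFB1 segment, the receptor bars are mostly TGFBR2, and the latent-binding bars (83.5 to 104 RPKM) overlap between groups.

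Most other genes of the pathway that passed were higher in shWDR5. They were grouped into 6 lists of 88 genes in all, of which 76 were tested: 45 rose, 14 fell and 17 did not pass, with a median log2 fold change of 0.34, where 26.6% of all genes tested were higher and 29.9% lower. Under the study's rule 22 were higher and 1 was lower, against 7.91% and 10.5% of all genes. The lists were chosen with earlier results of these data known, so these counts describe the lists and are not a test of the pathway. The counts of each list that follow stand against these same shares, with the same limit. FN1, MMP2 and MMP9 stand in 2 lists each.

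Of the genes that process and release latent TGFβ, 7 of 14 tested rose and 3 fell. The integrin chains ITGB6 and ITGAV, which pair into a receptor that pulls TGFβ1 and TGFβ3 free of their propeptides, rose from 261 ± 26.4 to 514 ± 36.7 CPM (SD, n = 3; log2 fold change 0.98 ± 0.08 SE; adjusted p = 4.1e-06) and from 321 ± 32.9 to 493 ± 53.6 CPM (0.62 ± 0.09 SE; adjusted p = 2.0e-04). MMP9, a gelatinase able to release latent TGFβ, rose 12.8-fold, from 6.05 ± 0.68 to 77.7 ± 16.1 CPM (adjusted p = 1.2e-07). The 3 that fell were the integrin chains ITGB3 (-0.45 ± 0.07 SE) and ITGB5 (-0.25 ± 0.07 SE) and the protease PCSK5 (-0.25 ± 0.07 SE, which lost its call without shLuc replicate 3, adjusted p = 0.052). FURIN was at 261 ± 15.5 CPM in shLuc and 238 ± 19.4 CPM in shWDR5 (log2 fold change -0.13 ± 0.07 SE; adjusted p = 0.13), and it passed without shLuc replicate 3 (adjusted p = 0.0497), without shWDR5 replicate 1 (adjusted p = 0.035) and with library totals in place of scaling factors (adjusted p = 0.031). LRRC32 and NRROS, which tether latent TGFβ on immune cells, were near 0 and not tested.

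Matrix genes that anchor the latent complex gave 5 higher and 1 lower of 8 tested. FN1, fibronectin, rose 6.13-fold, from 1103 ± 59.5 to 6761 ± 691 CPM (log2 fold change 2.62 ± 0.08 SE; adjusted p = 2.9e-08). EFEMP2, fibulin-4, rose from 1.76 ± 0.19 to 5.23 ± 0.57 CPM (adjusted p = 3.6e-06). MFAP2, a microfibril protein at most 1.12 CPM in any library, passed (1.01 ± 0.34 SE; adjusted p = 0.028) but not without shLuc replicate 2 (adjusted p = 0.068), shLuc replicate 3 (0.109) or shWDR5 replicate 1 (0.102). TGM2, the transglutaminase that crosslinks latent complexes to matrix, was the gene that fell, from 931 ± 92.1 to 416 ± 18.5 CPM (log2 fold change -1.16 ± 0.07 SE; adjusted p = 8.7e-07).

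Antagonists and accessory receptors were split, with 2 higher and 3 lower of 6 tested. BAMBI, a decoy receptor without a kinase, rose from 11.3 ± 0.68 to 21.3 ± 0.32 CPM (0.91 ± 0.07 SE; adjusted p = 2.7e-06), and CD109, a membrane protein that binds TGFβ1, rose by a log2 fold change of 0.30 ± 0.07 SE (adjusted p = 0.0038). The 3 that fell were VASN (-0.59 ± 0.07 SE), which binds TGFβ, and the co-receptors ENG (-0.46 ± 0.06 SE) and NRP1 (-0.44 ± 0.06 SE).

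Downstream, 7 of 14 SMAD pathway and feedback genes rose and 2 fell. PMEPA1, a SMAD-induced inhibitor of the pathway, rose 4.45-fold, from 93.1 ± 2.81 to 414 ± 33.0 CPM (log2 fold change 2.15 ± 0.07 SE; adjusted p = 2.9e-08). The SMAD co-repressors SKIL (0.69 ± 0.15 SE; adjusted p = 0.0031) and SKI (0.68 ± 0.06 SE; adjusted p = 5.4e-06) rose, as did SMAD7, the inhibitory SMAD (0.52 ± 0.08 SE; adjusted p = 4.0e-04). SMAD3 fell (-0.45 ± 0.05 SE; adjusted p = 4.7e-05). SMAD4 was at the threshold (-0.23 ± 0.09 SE; adjusted p = 0.049) and passed in 8 of 16 other ways of processing, with adjusted p = 0.15 without shWDR5 replicate 1 and 0.21 without shLuc replicate 2.

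Genes that respond to TGFβ in epithelial cells had 20 of 26 tested higher and 2 lower, where 26.6% and 29.9% of all genes passed in these directions. The median log2 fold change of the list was 0.57. Besides FN1 and MMP9, the largest rises among genes that passed the study's rule were in TAGLN, an actin-binding protein of smooth muscle (1.62 ± 0.27 to 7.74 ± 0.73 CPM; log2 fold change 2.24 ± 0.13 SE), in COL7A1, anchoring fibril collagen (29.8 ± 1.34 to 112 ± 16.1 CPM; 1.90 ± 0.10 SE), and in CDH2, N-cadherin (12.1 ± 1.33 to 40.4 ± 2.64 CPM; 1.74 ± 0.09 SE), each with adjusted p of 5.3e-07 or less. The list also holds MYC and the ID factors ID1, ID2 and ID3, which TGFβ lowers in many epithelial cells. Of these 4, 3 rose and ID2 did not pass, and without them 17 of 22 rose and 2 fell. Many of these genes also answer to other signals.

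Among the EMT genes of that list, named after their values were seen, VIM, vimentin, rose from 386 ± 40.4 to 892 ± 26.6 CPM (adjusted p = 7.1e-07) and SNAI2 from 17.3 ± 0.91 to 41.9 ± 4.08 CPM (adjusted p = 9.3e-07). ZEB1 rose from 1.21 ± 0.30 to 2.06 ± 0.065 CPM (adjusted p = 0.0023), or from 0.189 to 0.322 RPKM on average. ZEB2, at 0.0641 ± 0.021 CPM in shLuc and 0.602 ± 0.187 CPM in shWDR5, rose 9.47-fold (log2 fold change 3.24 ± 0.45 SE, adjusted p = 1.4e-04). Both ZEB1 and ZEB2 stayed below the study's limit of 0.5 RPKM. SNAI1 was near 1 CPM in both groups (-0.39 ± 0.18 SE; adjusted p = 0.097), and passed only when shWDR5 replicate 3 was left out (-0.55, adjusted p = 0.037). The 2 that fell were COL1A1 (-0.50 ± 0.08 SE; adjusted p = 4.4e-04) and TWIST1 (-0.34 ± 0.09 SE; adjusted p = 0.0075, and 0.071 without replicate 1 of both groups). In the same libraries 7 of 10 basal epithelial markers were higher in every silenced library than in any control. Counted in either direction, all 10 but ITGA6 had groups without overlap, against 62.3% of all genes tested. CDH1 and EPCAM were lower, as was COL1A1, the main fibroblast marker present. The part of these markers in the results of this list was not tested.

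**Figure D4:**
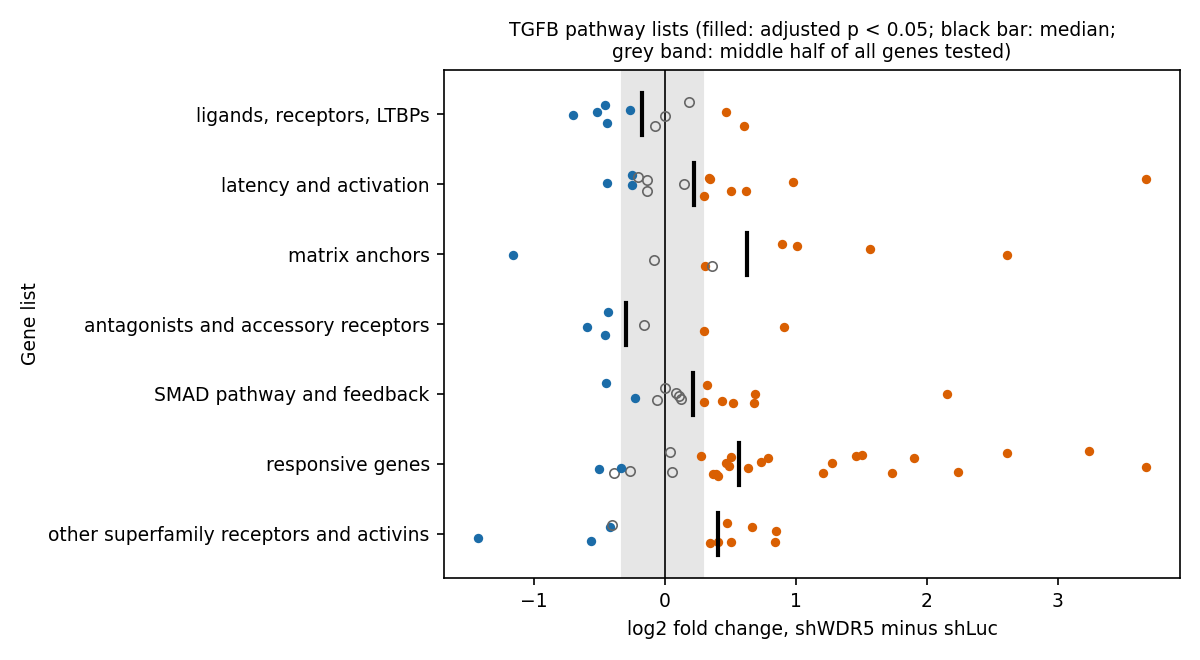
Log2 fold change of shWDR5 minus shLuc for the 10 members and for the tested genes of each pathway list, 1 point per gene (filled where adjusted p passed, blue lower, orange higher, open where it did not), with the list's median as a black bar and the middle 50% of all genes tested as a grey band. The members lie mostly left of 0 (median -0.17) and the responsive genes mostly right of it (median 0.57).

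Receptors of related ligands and the activin and inhibin chains had 7 of 11 tested higher and 3 lower. The 3 higher by the study's rule were INHA, the inhibin alpha chain (0.85 ± 0.11 SE; adjusted p = 1.0e-04), BMPR1B, a BMP receptor (0.84 ± 0.12 SE; adjusted p = 1.4e-04), and ACVR2A, an activin receptor (0.67 ± 0.09 SE; adjusted p = 1.6e-04). Their levels were 4.5 ± 0.40, 9.95 ± 0.68 and 13.3 ± 0.71 CPM in shWDR5. The 3 that fell were ACVR1C, a nodal and activin receptor (-1.43 ± 0.20 SE, adjusted p = 1.8e-04), ACVR2B, an activin receptor (-0.57 ± 0.08 SE, adjusted p = 2.3e-04), and BMPR1A, a BMP receptor (-0.42 ± 0.08 SE, adjusted p = 9.0e-04). ACVR1C was scarce, at 0.278 ± 0.066 RPKM in shLuc and 0.103 ± 0.017 RPKM in shWDR5 (SD, n = 3), below the study's limit of 0.5 RPKM.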

How the data were processed

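Poly-A RNA of 3 shLuc and 3 shWDR5 libraries was sequenced on an Illumina HiSeq instrument after TruSeq preparation. The deposited table holds the authors' raw read counts per gene, on hg19; TopHat2 2.1.0, featureCounts and edgeR 3.2.2 are named in the submitters' processing notes, and the strand setting is not given in the sources used here. A second table with the authors' own fold changes and p-values was not used. Totals were 38218108 to 57640167 counts, with at least 133 behind each member's value. All 6 libraries were fitted with edgeR 4.0.16 (R 4.3.3; filterByExpr, TMM scaling, quasi-likelihood F test, group as the only term), with Benjamini-Hochberg adjustment over 16117 genes and a threshold of 0.05. Fold changes are unshrunken, and the SE is the log2 fold change over the square root of F. CPM and RPKM were computed from the counts, TMM-scaled totals and the table's gene lengths. Alternatives used DESeq2 1.42.0, limma 3.58.1 (voom), other scalings, filters and left-out libraries. The script was tested on simulated data. Members and lists were chosen with earlier results of these data known. Named were all members, WDR5, FURIN, TGM2 and up to 5 genes per list that passed the study's rule, by size of change; any other gene named was chosen after its values were seen. Leaving out replicate 1 of both groups and shortening TGFB2 were added after the data were seen. Replicates of a group differed by more than sampling noise.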

Additional observations from a re-analysis of the deposited data

How the results depend on the processing

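The 7 members that passed kept their direction and their side of the threshold under 16 alternatives, and TGFB1 ranged from -0.76 to -0.65 (log2), with adjusted p from 3.4e-13 to 4.0e-04. TGFB2 passed in none. LTBP3 turned sign with library totals (-0.0536) and with no filter on low counts (-0.0061), and ranged from -0.0622 to 0.0777 when libraries were left out; its adjusted p stayed at 0.34 or above, and the cause was not tested. The study's rule asks for a larger change, and under it 2965 genes passed (1690 lower, 1275 higher), 2 members (1 lower, 1 higher) and 23 pathway genes (1 lower, 22 higher). The member that was higher, TGFBR1, fell short of that rule's 0.6 under some alternatives, such as library totals (0.55). Of 767 values of single genes under the alternatives, 5 changed sign, 15 lost and 8 gained a call. With the replicate number as a block, 10412 genes and 8 members passed in place of 9112 and 7, the added member being LTBP4 (0.19, adjusted p = 0.0040), and FURIN also passed (-0.14, adjusted p = 0.039). Deviations from the group means correlated at 0.64, 0.08 and 0.24 for replicates 1, 2 and 3, and not every library correlated best with its own number, so the numbers were not taken to pair the samples. The median log2 fold change of all genes lay between -0.07 and 0.03 under the scalings tried.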
